A study of Mus musculus with 24 samples.

Results

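The 40 genes described here encode proteins that carry a cell through mitosis: the kinases and cyclins that start it, the spindle and kinetochore proteins that move the chromosomes, and the cytokinesis proteins that separate the daughter cells. They were chosen by symbol, as a fixed list of 40 of the 37979 genes in the deposited table, and each symbol matched exactly 1 entry. Their levels were followed in macrophages and related myeloid cells sorted from mouse lung, with and without a growing tumour. The mice were male C57BL/6 of 10 to 16 weeks, and the tumour was LLC-Luc, a Lewis lung carcinoma line that carries luciferase, injected into the left lung lobe. At week 2 after injection the groups were MacA-2wk, MacB2-2wk and MacB3-2wk, and at week 3 they were MacB2-3wk and MacB3-3wk, all from the left lobe that held the tumour. Uninjected mice gave the naive groups MacA-N, MacB1-N and MacB2-N, for which all lobes were used. MacA cells were sorted as SiglecF+/CD11c+, MacB1 cells as CD11b+/Ly6G-/CD64low/CD11c+, MacB2 cells as CD11b+/Ly6G-/CD64med/CD11c- and MacB3 cells as CD11b+/Ly6G-/CD64hi/CD11c+. Each of the 8 groups has 3 libraries, and each library pools 3 to 5 mice; the 3 libraries of a group come from independent experiments.

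Mitosis genes are switched on late in the cell cycle and their transcripts are broken down again once the cell has divided, so in a resting cell most of them are scarce. Entry into mitosis needs Cdk1 bound to cyclin A or cyclin B; the anaphase-promoting complex, a ubiquitin ligase, later marks those cyclins for destruction. In mouse lung, alveolar macrophages (SiglecF+/CD11c+ by surface markers) are known to renew themselves locally, whereas CD11b+ interstitial macrophages and monocyte-derived cells are partly replenished from blood. Lewis lung carcinoma is itself a dividing mouse cell line.

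Expression was given per gene in FPKM, a fragment count scaled by transcript length and by the mapped fragments of the library, so levels of different genes can be compared per length. Of the 37979 genes, 17156 had a group mean of 1 FPKM or more somewhere and were tested, and all 40 mitosis genes were among them; Ttk passed only through MacA-2wk. A gene is said to have risen or fallen where limma gave an adjusted p under 0.05 (Benjamini-Hochberg over the 17156 genes) and a change of at least 2-fold on the log2(FPKM + 1) scale, a scale that understates changes of scarce genes. The total reads per library are unknown; low FPKM steps gave relative depths of 0.52 to 1. Of the sorting markers, Siglecf and Itgax followed the gates. Siglecf averaged 146 ± 23.1 FPKM in MacA-2wk and 231 ± 69.98 FPKM in MacA-N (SD, n = 3 each) and at most 5.25 FPKM in a MacB group. Itgax, which encodes CD11c, averaged at most 12.02 FPKM in the CD11c- MacB2 groups and at least 71.2 FPKM in the other groups. Ly6g was listed at 0 in all 24 libraries, MacA included, so it tells no groups apart. RNA levels for CD11b and CD64 are not given here. The groups cannot be told apart from some features of the design. All MacA libraries were read in 1 sequencing lane and all MacB libraries in 3 others, and tumour groups came from the left lobe but naive groups from all lobes. In sorted bulk cells, fewer dividing cells and less mitotic RNA per dividing cell cannot be told apart.

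Mitosis transcripts were scarce in naive MacB2 cells, intermediate in MacB1-N and MacB2-2wk, and abundant in the MacA groups, both MacB3 groups and MacB2-3wk. The mean log2(FPKM + 1) over the 40 genes was 3.93, 3.28 and 3.58 in the MacB3-3wk libraries, 3.85, 3.36 and 3.05 in MacA-2wk, 3.50, 3.33 and 3.18 in MacB2-3wk and 3.22, 3.16 and 2.86 in MacB3-2wk. It was 1.88, 1.90 and 2.24 in MacB2-2wk. In the naive groups it was 3.29, 3.04 and 2.97 in MacA-N, 1.88, 1.74 and 2.19 in MacB1-N and 1.11, 1.01 and 0.98 in MacB2-N. As group means ± SD the order ran from 3.60 ± 0.33 in MacB3-3wk through 3.42 ± 0.40 in MacA-2wk, 3.33 ± 0.16 in MacB2-3wk, 3.10 ± 0.17 in MacA-N and 3.08 ± 0.20 in MacB3-2wk. These 5 groups each overlapped their neighbour in the order. Below a gap without libraries lay MacB2-2wk at 2.01 ± 0.20 and MacB1-N at 1.94 ± 0.23, which overlapped each other, and below another gap lay MacB2-N at 1.04 ± 0.07. Summed over the 40 genes, the level averaged 852 ± 194.0 FPKM in MacB3-3wk and 118 ± 27.3 FPKM in MacB2-N.

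**Figure D1:**
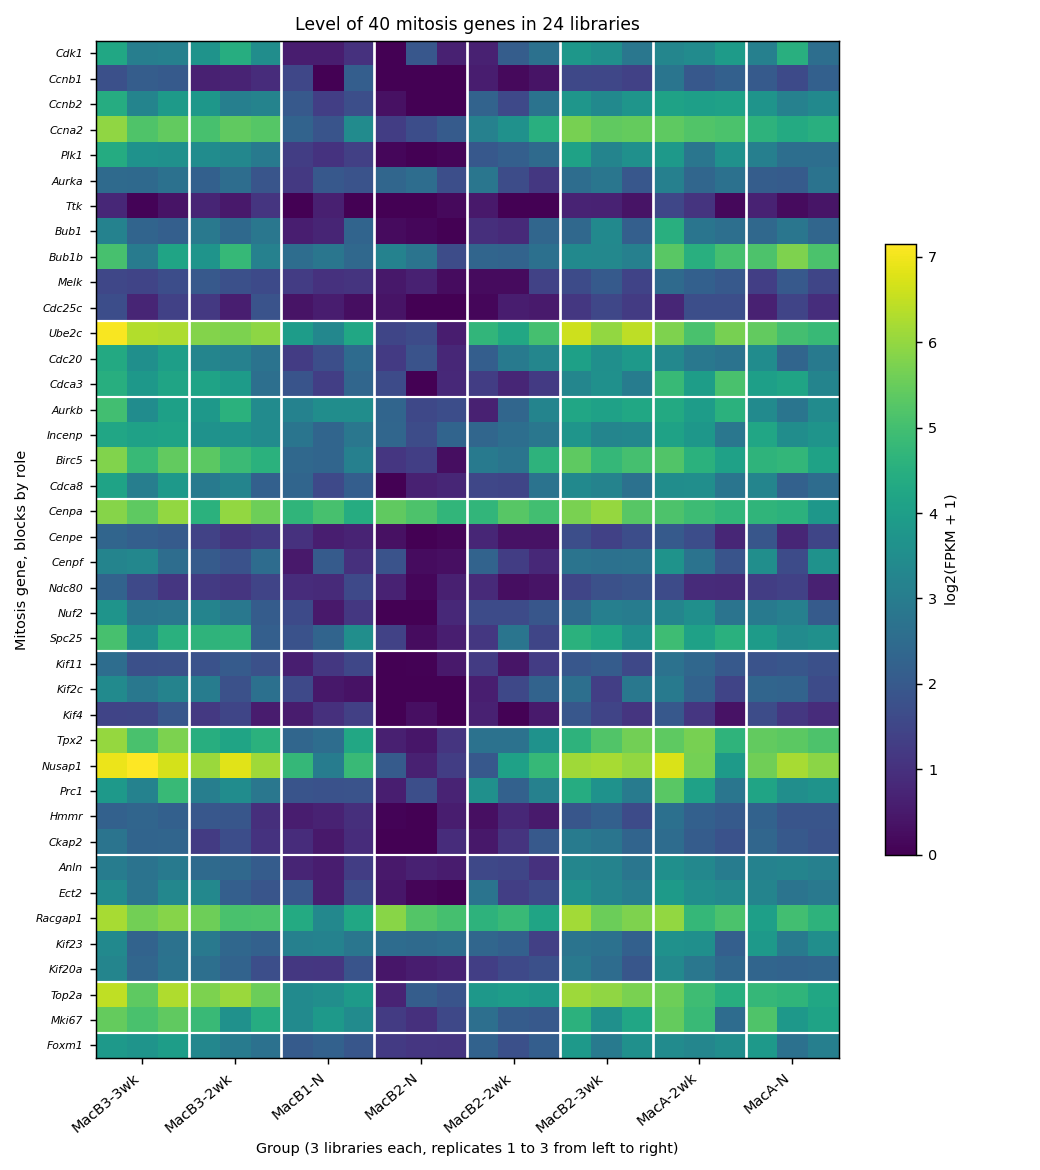
Level of each of the 40 mitosis genes, arranged in blocks by role from top to bottom, in each of the 24 libraries from left to right; colour gives log2(FPKM + 1). The 3 MacB2-N columns are the darkest (lowest), with 34 of the 40 genes at their lowest group mean there, and the MacB3-3wk, MacA and MacB2-3wk columns are brighter.

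Of the 40 genes, 19 had their highest group mean in MacB3-3wk, 16 in MacA-2wk, 3 in MacA-N, 1 in MacB3-2wk and 1 in MacB2-3wk. The lowest group mean fell in MacB2-N for 34 genes, in MacB1-N for 3, in MacB2-2wk for 2 and in MacA-N for 1. In MacB2-N only 16 genes averaged at least 1 FPKM, and Ccnb1 and Kif2c, which encode cyclin B1 and a kinesin that takes microtubules apart, were listed at 0 in all 3 libraries. No fold change is given against that group for these 2 genes.

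The promoters are shown because genes of late mitosis are known to share a short element, the cell cycle genes homology region, bound by the DREAM and MuvB-B-MYB-FOXM1 complexes, often with a nearby CCAAT box bound by NF-Y. RefSeq promoter sequences (GRCm38.p6, from 250 bases before to 50 bases after the annotated start) were matched by symbol for 33 of the 40 genes; Tpx2, Ccna2, Aurkb, Kif20a, Foxm1, Incenp and Cdc25c were not matched. The letters TTTGAA or TTTAAA, searched on both strands, occurred in the window of 29 of the 33 genes, 87.9%, against 30.6% of 27025 genes in the same table. The letters CCAAT, searched on both strands, occurred for 26 of the 33 genes, 78.8%, against 41.1% of all genes. Both motifs, which can share at most a base at their ends, occurred for 25 genes, 75.8%, against 12.2% of all genes. The 6 stretches below are from the matched genes with the highest mean FPKM over all libraries that hold the hexamer before the start. Capitals mark the hexamer (TTCAAA is TTTGAA read from the other strand) and CCAAT or its reverse ATTGG.
Ube2c: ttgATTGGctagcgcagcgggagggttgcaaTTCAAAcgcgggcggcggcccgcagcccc
Top2a: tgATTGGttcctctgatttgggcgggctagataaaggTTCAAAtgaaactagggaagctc
Mki67: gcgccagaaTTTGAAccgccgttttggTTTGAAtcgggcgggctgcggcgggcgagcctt
Birc5: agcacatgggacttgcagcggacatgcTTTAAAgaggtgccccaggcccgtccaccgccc
Prc1: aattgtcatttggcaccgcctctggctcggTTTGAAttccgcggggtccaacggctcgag
Cenpa: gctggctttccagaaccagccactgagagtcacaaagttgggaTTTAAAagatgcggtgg
The stretches lie, with the strand they are written on, at chr2:164769869-164769928 (+) for Ube2c, chr11:99024190-99024249 (-) for Top2a, chr7:135716445-135716504 (-) for Mki67, chr11:117848990-117849049 (+) for Birc5, chr7:80294416-80294475 (+) for Prc1 and chr5:30666826-30666885 (+) for Cenpa. The hexamer shown begins 29 bases before the annotated start in Ube2c, 23 in Top2a, 30 in Prc1 (5 from another annotated start of Prc1) and 17 in Cenpa, but 220 in Birc5, and Mki67 has it at 98 and at 116 bases. Top2a holds a further TTTGAA upstream of the stretch shown, and Cenpa holds one after its start. Cenpa, whose level did not follow the other genes (below), carries the hexamer too. Among the genes most used below, Ube2c spans chr2:164769898-164778822, Top2a chr11:98992943-99024189, Plk1 chr7:122159439-122169873, Mki67 chr7:135689784-135716361 and Birc5 chr11:117849251-117855743 (GENCODE annotation of GRCm38, by Ensembl ID). A match of letters describes the sequence and does not show that a factor binds there.

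Among naive cells, mitosis transcripts were lower in MacB2-N than in MacA-N for nearly every gene. Ube2c, the ubiquitin-conjugating enzyme that works with the anaphase-promoting complex, had 1.799, 2.13 and 0.4797 FPKM in MacB2-N, against 42.2, 31.3 and 27.05 FPKM in MacA-N. Tpx2, which builds spindle microtubules and activates Aurora A, had 0.544, 0.344 and 1.15 FPKM in MacB2-N, against 42.3, 39.3 and 34.7 FPKM in MacA-N. Plk1, the polo-like kinase of mitotic entry and exit, had 0.0855, 0 and 0.0608 FPKM in MacB2-N, against 7.503, 4.96 and 4.97 FPKM in MacA-N. Every MacB2-N library lay below every MacA-N library for each of these 3 genes. Ube2c fell with a log2 fold change of -3.85 ± 0.31 (SE; adjusted p = 1.34e-08). Tpx2 fell with a log2 fold change of -4.59 ± 0.42 (adjusted p = 7.13e-08) and Plk1 with -2.68 ± 0.29 (adjusted p = 6.33e-07). In all, 33 of the 40 genes fell and 0 rose, against 10.2% and 10.7% of all tested genes. In limma 2 of the 40 had an unadjusted p under 0.05 in the upward direction, against 19.2% of all tested genes. The median log2 difference was -2.18 over the 38 genes not listed at 0 in MacB2-N, and 0.03 over all tested genes. The 33 included both chromosome structure genes, all 3 partners of the anaphase-promoting complex, all 5 spindle microtubule proteins, all 4 members of the chromosomal passenger complex and all 3 spindle kinesins. Ccnb1, listed at 0 in every MacB2-N library, had 3.098, 2.03 and 3.55 FPKM in MacA-N.

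The other well-known members fell as well in MacB2-N. Mki67, which encodes the Ki-67 antigen that coats mitotic chromosomes, had 1.35, 0.996 and 1.904 FPKM in MacB2-N, against 35.4, 13.04 and 16.9 FPKM in MacA-N, a log2 fold change of -3.13 ± 0.53 (adjusted p = 0.000135). Top2a, the topoisomerase that untangles sister chromatids, fell by a log2 fold change of -3.01 ± 0.34 (adjusted p = 9.29e-07). Birc5 (survivin), a chromosomal passenger protein, changed by -3.58 ± 0.43 (adjusted p = 2.59e-06) and Cdk1, the kinase that drives mitotic entry, by -2.53 ± 0.56 (adjusted p = 0.00175). Cdk1 varied widely among libraries, with 0, 2.86 and 0.5804 FPKM in MacB2-N and 7.61, 21.8 and 5.03 FPKM in MacA-N. The 7 genes that did not pass the test were Aurka, Cenpa, Kif23, Ndc80, Ttk, Racgap1 and Cdc25c. With a pseudocount of 5 the count of 33 became 20. Alveolar macrophage markers went the same way, with 19 of 19 lower (summed level 316 to 457 FPKM in MacB2-N and 11937 to 17369 FPKM in MacA-N), whereas 3 of 15 endothelial, 1 of 15 fibroblast, 4 of 11 dendritic cell and 3 of 8 B cell markers were higher; their part in the result was not tested.

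MacB1-N cells, the CD11c+ naive MacB sort, also had less mitotic RNA than MacA-N, for fewer genes. Anln (anillin), the scaffold of the contractile ring, had 0.674, 0.499 and 1.44 FPKM in MacB1-N, against 7.999, 8.34 and 7.62 FPKM in MacA-N. Bub1b (BubR1), a kinetochore protein of the spindle checkpoint, had 4.83, 5.999 and 4.296 FPKM in MacB1-N, against 34.5, 53.03 and 33.9 FPKM in MacA-N. Cdk1 had 0.482, 0.486 and 1.04 FPKM in MacB1-N. No MacB1-N library reached a MacA-N library in any of the 3. The log2 fold change was -2.30 ± 0.22 for Anln (adjusted p = 1.31e-07), -2.76 ± 0.46 for Bub1b (adjusted p = 0.000121) and -2.68 ± 0.56 for Cdk1 (adjusted p = 0.00108). In all, 20 genes fell and 0 rose, against 8.71% and 15% of all tested genes; 0 of the 40 had an unadjusted p under 0.05 in the upward direction in limma. Ccnb2, Ccna2, Tpx2, Plk1 and Birc5 were among the 20, with log2 fold changes between -2.25 ± 0.42 for Tpx2 and -1.52 ± 0.29 for Plk1. The median log2 difference was -1.15 over the 40 genes and 0.12 over all tested genes, a median of all genes that became -0.03 after quantile normalization.

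Not all members fell in MacB1-N. Mki67 had 9.75, 13.2 and 9.84 FPKM in MacB1-N, and its log2 fold change against MacA-N was -0.82 ± 0.53 (adjusted p = 0.256), with overlapping libraries. Top2a had 9.77, 10.5 and 13.8 FPKM in MacB1-N, below the 26.1, 24.6 and 18.2 FPKM of MacA-N in every library, but its log2 fold change of -0.95 ± 0.34 was under 2-fold (adjusted p = 0.0353). Ccnb1 did not pass either (-0.72 ± 0.37, adjusted p = 0.144). The count of 20 became 11 with a pseudocount of 5. Many markers of other cells moved with this comparison, upward: 13 of 15 fibroblast markers were higher and 1 lower (summed level 728 to 889 FPKM in MacB1-N and 423 to 468 FPKM in MacA-N, where Lum was listed at 0), 14 of 15 endothelial markers were higher (633 to 811 and 125 to 181 FPKM), 10 of 11 dendritic cell markers were higher and 18 of 19 alveolar macrophage markers were lower. Among lymphocyte markers 8 of 13 T cell, 5 of 8 B cell and 3 of 6 NK cell markers were higher, and of the epithelial markers 6 of 15 were higher and 3 lower. Their part in the lower mitotic levels was not tested.

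Set against each other, MacB1-N had more mitotic RNA than MacB2-N. Ube2c had 14.6, 8.99 and 18.1 FPKM in MacB1-N, above each of the 1.799, 2.13 and 0.4797 FPKM in MacB2-N, with a log2 fold change of 2.61 ± 0.31 (adjusted p = 2.09e-05). Top2a rose by 2.05 ± 0.34 (adjusted p = 0.000539), its libraries apart as listed above. Tpx2 had 4.11, 4.85 and 18.3 FPKM in MacB1-N, its highest value in the third library, and rose by 2.34 ± 0.42 (adjusted p = 0.00141). In all 10 genes were higher and 1 lower in MacB1-N, against 3.5% and 1.7% of all tested genes, and the median log2 difference was 0.82 over the 38 genes not listed at 0 in MacB2-N and 0.09 over all tested genes. Within each sequencing lane, which holds 1 library of each group, 33, 33 and 36 of the 40 genes were higher in MacB1-N. The lane medians were 0.70, 0.65 and 1.09 over the 40 genes and 0.02, 0.06 and 0.03 over all tested genes. Lane counts here and below use the same libraries as the test, so they are no separate support. The matching shares of all tested genes are not given. The count of 11 fell to 6 without the third MacB1-N library and to 6 without the second MacB2-N library, and to 2 when only these groups were fitted. The gene that was lower was Racgap1, described further below. Markers of other cells leaned the same way. In MacB1-N 5 of 11 dendritic cell, 9 of 19 alveolar macrophage, 2 of 13 T cell, 2 of 6 NK cell and 2 of 8 B cell markers were higher. Of the fibroblast markers 1 of 15 was lower, but 13 of 15 fitted differences were above 0 and 9 had an unadjusted p under 0.05 upward; of the endothelial markers 0 of 15 passed in limma, but all 15 differences were above 0 and 8 had an unadjusted p under 0.05 upward. Their part was not tested.

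**Figure D2:**
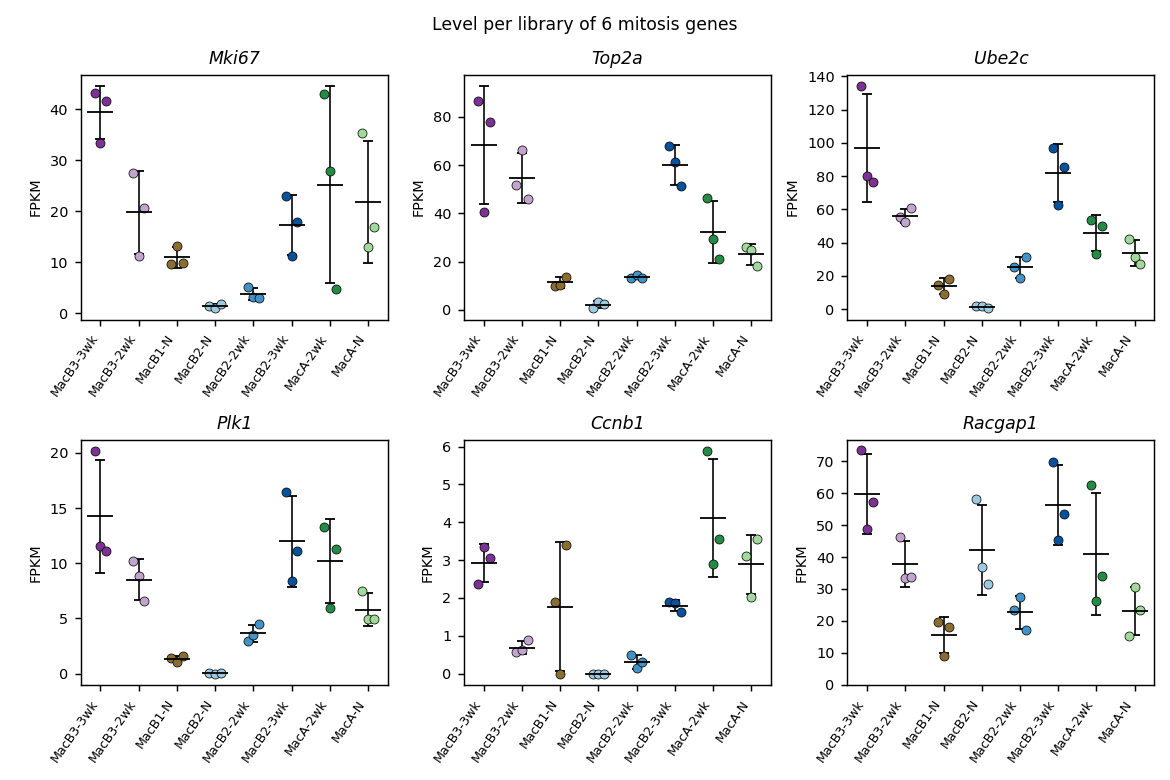
Level in FPKM of 6 mitosis genes in each library (points), with the group mean and SD (bars), for the 8 groups. Ube2c, Top2a and Plk1 are lowest in MacB2-N and climb through MacB2-2wk to MacB2-3wk, Ccnb1 is highest in MacA-2wk, and Racgap1 is high in MacB2-N, at 42.2 ± 14.03 FPKM.

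In MacB2 cells 9 of the 40 mitosis genes were higher at week 2, and 34 at week 3, than in MacB2-N. Ube2c had 1.799, 2.13 and 0.4797 FPKM in MacB2-N, 25.2, 18.7 and 31.6 FPKM at week 2 and 96.7, 62.6 and 85.5 FPKM at week 3. Top2a had 0.6298, 3.31 and 2.64 FPKM in MacB2-N, 13.03, 14.5 and 13.02 FPKM at week 2 and 67.7, 61.1 and 51.3 FPKM at week 3. Plk1 had 0.0855, 0 and 0.0608 FPKM in MacB2-N, 2.94, 3.51 and 4.52 FPKM at week 2 and 16.5, 8.38 and 11.1 FPKM at week 3. For all 3 genes the 3 groups did not overlap.

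At week 2 the rise against MacB2-N was limited to part of the genes. Ube2c rose by a log2 fold change of 3.45 ± 0.31 (adjusted p = 5.25e-06), Plk1 by 2.14 ± 0.29 (adjusted p = 0.000447) and Top2a by 2.30 ± 0.34 (adjusted p = 0.000811). Ccnb2 (cyclin B2), Ccna2 (cyclin A2) and Birc5 rose as well, with log2 fold changes of 2.08 ± 0.31 (adjusted p = 0.000841), 2.07 ± 0.35 (adjusted p = 0.00246) and 2.53 ± 0.43 (adjusted p = 0.00282). With Tpx2, Cdc20 and Ect2 they made 9 genes that rose, and 0 fell, against 1.66% and 0.227% of all tested genes. In limma 20 had an unadjusted p under 0.05 upward and 1 downward, against 9.79% and 5.06% of all tested genes. Mki67 was not among them, with 5.14, 3.24 and 2.97 FPKM at week 2 and a log2 fold change of 0.98 ± 0.53 (adjusted p = 0.416), nor was Cdk1 (0.94 ± 0.56, adjusted p = 0.466). The median log2 difference over the 38 genes was 0.88, against 0.03 over all tested genes. The count of 9 became 1, Ube2c, when only these groups were fitted, ranged from 6 to 9 with a library left out, and became 4 with a pseudocount of 5 and 19 with a pseudocount of 0.1. The fitted difference was below 0 for 5 genes, of which Racgap1 averaged 22.7 ± 5.23 FPKM at week 2 and 42.2 ± 14.03 FPKM in MacB2-N. Of the markers of other cells, 2 of 15 fibroblast, 2 of 19 alveolar macrophage and 1 each of the NK cell, neutrophil and dendritic cell markers were higher, and 0 of 15 endothelial markers changed in limma (0 at an unadjusted p under 0.05); their part was not tested.

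At week 3, 34 of the 40 genes were higher than in MacB2-N, and 0 were lower, against 9.67% and 5.04% of all tested genes; in limma 0 had an unadjusted p under 0.05 downward. Ube2c rose by a log2 fold change of 5.11 ± 0.31 (adjusted p = 1.35e-08), the largest of the 38 genes with a fold change. Top2a rose by 4.36 ± 0.34 (adjusted p = 1.14e-07), Plk1 by 3.58 ± 0.29 (adjusted p = 1.55e-07) and Anln by 2.53 ± 0.22 (adjusted p = 3.24e-07). Birc5 had 40.5, 26.01 and 31.8 FPKM at week 3, against 1.18, 1.53 and 0.208 FPKM in MacB2-N (4.14 ± 0.43, adjusted p = 1.86e-06). Mki67 now rose too, with 22.9, 11.1 and 17.9 FPKM at week 3 (2.88 ± 0.53, adjusted p = 0.000619), and so did Cdk1 (2.53 ± 0.56, adjusted p = 0.00292). Ccnb1 (cyclin B1) had 1.903, 1.86 and 1.63 FPKM at week 3 and 0.489, 0.142 and 0.298 FPKM at week 2. It was listed at 0 throughout MacB2-N. The median log2 difference was 2.43 over the 38 genes and 0 over all tested genes.

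Split by sequencing lane, 40, 40 and 39 of the 40 genes were higher at week 3 than in the MacB2-N library of the same lane. The lane medians were 2.46, 2.12 and 2.17 over the 40 genes and 0 over all tested genes in each lane. The 6 genes that did not pass the test were Aurka, Bub1b, Cenpa, Kif23, Ttk and Racgap1. The count of 34 became 21 with a pseudocount of 5 and stayed between 32 and 34 with any library left out. Fibroblast markers rose alongside: 7 of 15 were higher and 1 lower (summed level 2214 to 2854 FPKM in MacB2-3wk and 1031 to 1569.6 FPKM in MacB2-N), and Lum, a collagen-binding matrix protein, averaged 55.7 ± 28.7 FPKM in MacB2-3wk and 0.403 ± 0.3597 FPKM in MacB2-N. Of the epithelial markers, the keratins Krt8 and Krt18 were higher and 3 of 15 lower (summed level 678 to 935 FPKM in MacB2-3wk and 3509.5 to 10436 FPKM in MacB2-N); Krt18 averaged 39.8 ± 2.56 FPKM in MacB2-3wk and 1.64 ± 0.5405 FPKM in MacB2-N. Endothelial markers went the other way, with 5 of 15 lower, as did 4 of 11 dendritic cell markers (1 higher) and 3 of 8 B cell markers; of the alveolar macrophage markers 4 of 19 were higher and 3 lower, and of the neutrophil markers 2 of 10 were higher and 1 lower. No list of Lewis lung carcinoma genes was used, and the part of tumour or stromal RNA in the rise was not tested.

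Between week 2 and week 3, MacB2 cells gained further mitotic RNA: 21 of the 40 genes were higher in MacB2-3wk than in MacB2-2wk, and 0 were lower, against 3.06% and 1.28% of all tested genes, with 0 at an unadjusted p under 0.05 downward in limma. Ccna2 had 49.9, 41.2 and 42.8 FPKM in MacB2-3wk, against 7.797, 11.2 and 21.7 FPKM in MacB2-2wk (1.76 ± 0.35, adjusted p = 0.00572). Anln had 8.69, 8.19 and 5.98 FPKM in MacB2-3wk, against 1.94, 1.79 and 1.03 FPKM in MacB2-2wk (1.74 ± 0.22, adjusted p = 0.000438). Foxm1, the transcription factor that drives many genes of mitosis, had 13.4, 6.73 and 10.9 FPKM in MacB2-3wk, against 3.79, 2.34 and 3.41 FPKM in MacB2-2wk (1.41 ± 0.27, adjusted p = 0.00464). Every week 3 library lay above every week 2 library for these 3 genes. Top2a rose by 2.06 ± 0.34 (adjusted p = 0.00215) and Ube2c by 1.67 ± 0.31 (adjusted p = 0.00423). Mki67 rose by 1.91 ± 0.53 (adjusted p = 0.0361), but its adjusted p exceeded 0.05 without any 1 MacB2-2wk library and without the first or the third MacB2-3wk library, at most 0.137. The count of 21 fell to 13 without the first MacB2-2wk library and to 12 without the first MacB2-3wk library. Within lanes, 39, 39 and 37 of the 40 genes were higher at week 3. The lane medians were 1.55, 1.47 and 0.98 over the 40 genes and 0 over all tested genes in each lane. Of other markers, 3 of 15 fibroblast (1 lower) and 2 of 15 epithelial markers were higher, and 8 of 15 endothelial, 3 of 11 dendritic cell, 2 of 8 B cell and 2 of 19 alveolar macrophage markers lower, at week 3; their part was not tested.

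**Figure D3:**
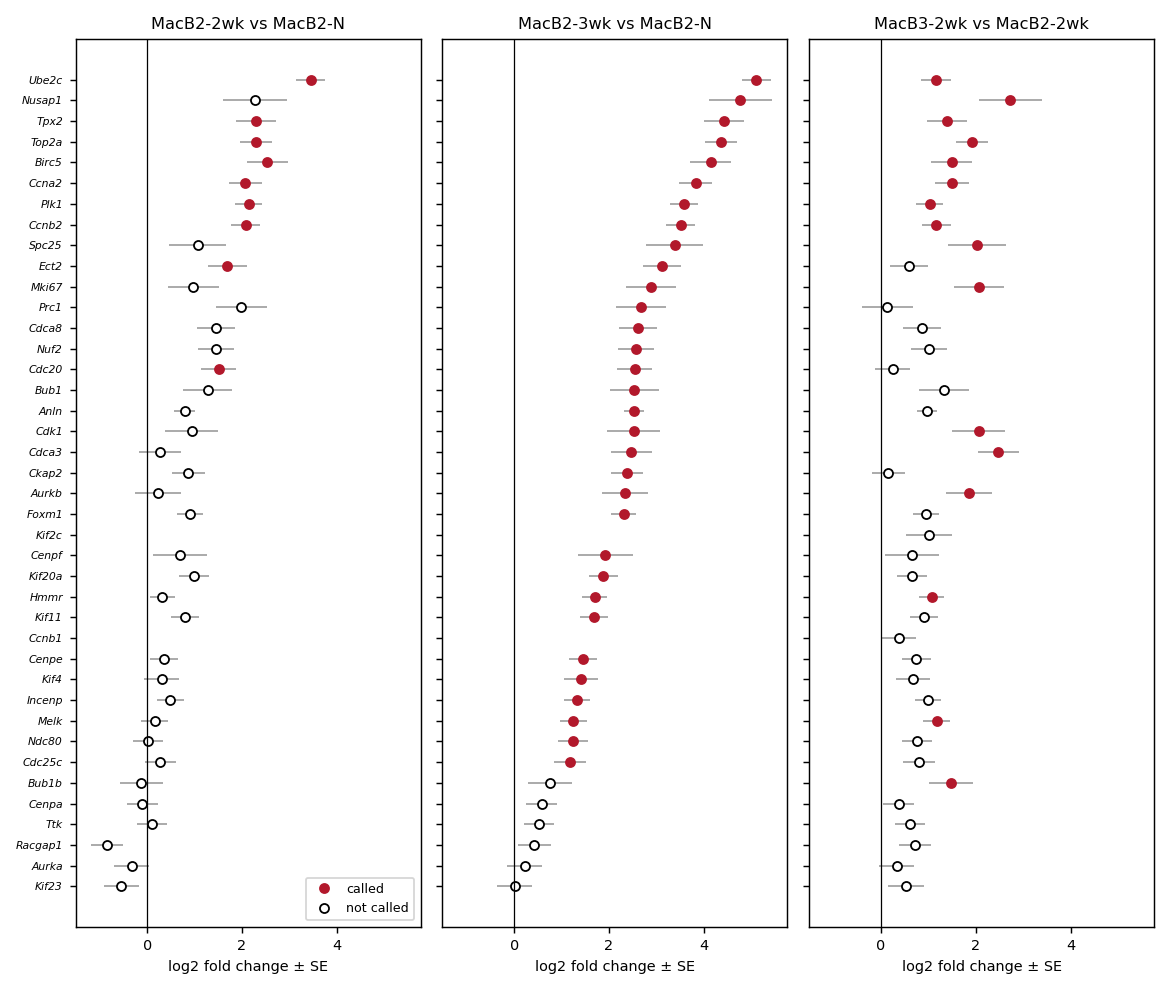
Fitted log2 fold change on the log2(FPKM + 1) scale with its SE for each mitosis gene in MacB2-2wk against MacB2-N, MacB2-3wk against MacB2-N and MacB3-2wk against MacB2-2wk; filled points passed the test. Ube2c is at the top and Kif23 at the bottom of the week 3 order, and Ccnb1 and Kif2c have no point against MacB2-N, where they were listed at 0.

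At week 2 the CD11c+ CD64hi MacB3 cells had more mitotic RNA than MacB2 cells, both sorted from tumour-bearing lobes. Top2a had 51.9, 66.1 and 45.9 FPKM in MacB3-2wk, against 13.03, 14.5 and 13.02 FPKM in MacB2-2wk. Cdca3, an adaptor for the ubiquitin-driven removal of the Cdk1 inhibitor Wee1, had 16.6, 14.1 and 5.12 FPKM in MacB3-2wk, against 1.44, 0.6997 and 1.302 FPKM in MacB2-2wk. Nusap1, a protein that bundles spindle microtubules, had 66.5, 112 and 69.2 FPKM in MacB3-2wk, against 2.94, 15.9 and 26.9 FPKM in MacB2-2wk. The groups did not overlap in any of the 3. The log2 fold change was 1.92 ± 0.34 for Top2a (adjusted p = 0.000897), 2.47 ± 0.44 for Cdca3 (adjusted p = 0.000967) and 2.72 ± 0.67 for Nusap1 (adjusted p = 0.0122). The adjusted p of Nusap1 rose above 0.05 without the first MacB2-2wk or the second MacB3-2wk library, at most 0.0749. In all 16 genes were higher and 0 lower, against 3.15% and 4.21% of all tested genes, with 0 at an unadjusted p under 0.05 downward in limma. Mki67 had 27.5, 11.3 and 20.6 FPKM in MacB3-2wk, each above the MacB2-2wk libraries, and rose by 2.06 ± 0.53 (adjusted p = 0.0167); the adjusted p reached 0.0741 at most without the second or the third MacB2-2wk library or the first or the third MacB3-2wk library. The median log2 difference was 0.98 over the 40 genes and -0.08 over all tested genes.

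The size of this difference depended on single libraries. The count of 16 fell to 6 without the first MacB2-2wk library, to 9 without the second, to 6 without the first MacB3-2wk library and to 6 without the second, and to 5 when only these groups were fitted. Within lanes, 36, 40 and 34 of the 40 genes were higher in MacB3-2wk. The lane medians were 1.28, 1.24 and 0.56 over the 40 genes and -0.03, -0.05 and 0 over all tested genes. Markers of some other cells were higher too: 4 of 19 alveolar macrophage (3 lower), 1 of 13 T cell and 1 of 8 B cell markers (2 lower); their part was not tested. Of 15 fibroblast, 15 endothelial and 15 epithelial markers, 0 were higher in limma in each list, also at an unadjusted p under 0.05. By the test 2 fibroblast, 8 endothelial and 4 epithelial markers were lower, against 4.21% of all tested genes. At an unadjusted p under 0.05 in limma, 12 fibroblast, 12 endothelial and 9 epithelial markers were lower, against 14.8% of all tested genes. The part of these markers was not tested. Against the naive CD11c+ MacB1-N cells, 17 genes were higher in MacB3-2wk and 0 lower, against 8.32% and 13.1% of all tested genes, with 0 at an unadjusted p under 0.05 downward. Anln had 4.54, 4.37 and 3.21 FPKM in MacB3-2wk, against 0.674, 0.499 and 1.44 FPKM in MacB1-N, and rose by 1.45 ± 0.22 (adjusted p = 6.4e-05). Ccna2 had 32.6, 41.4 and 37.5 FPKM in MacB3-2wk, against 3.86, 2.62 and 10.005 FPKM in MacB1-N, and rose by 2.71 ± 0.35 (adjusted p = 1.1e-05). Both genes separated the groups fully. In that comparison 15 of 15 endothelial, 11 of 15 epithelial, 7 of 15 fibroblast (1 higher), 9 of 11 dendritic cell and 6 of 13 T cell markers were lower in MacB3-2wk, and of the alveolar macrophage markers 8 of 19 were lower and 3 higher; their part was not tested.

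By week 3 the difference between MacB3 and MacB2 was no longer detected. Of the 40 genes, 0 passed in limma in MacB3-3wk against MacB2-3wk, where 2.64% of all tested genes did, and the smallest adjusted p was 0.214. In limma 2 had an unadjusted p under 0.05 upward, against 6.63% of all tested genes, and 0 downward. Top2a had 86.5, 40.4 and 78.01 FPKM in MacB3-3wk, against 67.7, 61.1 and 51.3 FPKM in MacB2-3wk, overlapping groups (0.12 ± 0.34, adjusted p = 0.962). Mki67 had 43.2, 33.4 and 41.5 FPKM in MacB3-3wk, each above the 22.9, 11.1 and 17.9 FPKM of MacB2-3wk (1.19 ± 0.53, adjusted p = 0.289). The fold changes of the 40 genes ranged from -0.22 to 1.19 with SEs of 0.22 to 0.67. Within lanes, 32, 15 and 32 of the 40 genes were higher in MacB3-3wk, and the median was -0.18 in the lane where 15 were.

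Between week 2 and week 3 within MacB3, 36 of the 40 fitted differences were above 0. Their median was 0.56, against 0.01 over all tested genes. In limma 0 of the 40 passed the test, where 0.315% of all tested genes did. Upward, 11 had an unadjusted p under 0.05 in limma, against 5.73% of all tested genes, and the smallest adjusted p was 0.203. Plk1 had 20.2, 11.6 and 11.1 FPKM in MacB3-3wk, against 10.2, 8.83 and 6.56 FPKM in MacB3-2wk (0.65 ± 0.29, adjusted p = 0.533). Birc5 had 54.6, 27.3 and 41.7 FPKM in MacB3-3wk, against 40.1, 28.2 and 22.5 FPKM in MacB3-2wk (0.42 ± 0.43, adjusted p = 0.951). The Birc5 groups overlapped and the Plk1 groups did not. The first MacB3-3wk library held the highest value of its group for 30 of the 40 genes and the second held the lowest for 30.

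The change of MacB2 from week 2 to week 3 was larger than that of MacB3 for most genes by the fitted values, but no difference of changes passed the test. The interaction was below 0 for 38 of the 40 genes, with a median of -0.75, and 0 passed in limma, as did 0 of the 17156 genes. The median over all tested genes was 0.02. The 40 genes were measured in the same libraries, so their signs are not independent. In limma 9 of the 40 had an unadjusted p under 0.05 downward, against 3.04% of all tested genes, and 0 upward. The smallest adjusted p was 0.394.

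Tumour-bearing mice did not have detectably higher mitotic RNA in MacA cells. Of the 40 genes, 0 passed in limma in MacA-2wk against MacA-N, where 0.787% of all tested genes did, and the smallest adjusted p was 0.399. The fitted difference was above 0 for 32 genes, and its median over all tested genes was 0.05. In limma 6 had an unadjusted p under 0.05 upward, against 7.64% of all tested genes, and 0 downward. For 9 genes every MacA-2wk library lay above every MacA-N library, against 9.62% of all tested genes. Mki67 had 43.1, 27.8 and 4.82 FPKM in MacA-2wk, against 35.4, 13.04 and 16.9 FPKM in MacA-N (-0.10 ± 0.53, adjusted p = 1). Top2a had 46.5, 29.3 and 21.2 FPKM in MacA-2wk, against 26.1, 24.6 and 18.2 FPKM in MacA-N (0.42 ± 0.34, adjusted p = 0.703). Cdk1 had 8.75, 9.92 and 14.2 FPKM in MacA-2wk (0.15 ± 0.56, adjusted p = 0.997). All 3 overlapped. Ccna2 had 40.8, 36.3 and 34.02 FPKM in MacA-2wk, each above the 23.7, 19.6 and 21.8 FPKM of MacA-N, without passing. The median log2 difference was 0.38, from -0.48 to 1.07, and the spread among MacA-2wk libraries was wide: the first held the highest value for 32 of the 40 genes and the third the lowest for 27. The third MacA-2wk library also stood apart in fibroblast markers and in composition. The mean log2(FPKM + 1) of the fibroblast markers was 2.90, 2.86 and 4.89 in the MacA-2wk libraries and 2.27, 2.64 and 2.74 in the MacA-N libraries (1 of 15 markers higher by the test, and Lum listed at 0 in MacA-N). Protein-coding genes held 22.2%, 21.4% and 10.3% of the summed FPKM in the MacA-2wk libraries, and 27.5%, 26.5% and 24.6% in the MacA-N libraries. The part of this library was not tested. With any 1 library left out the count remained 0.

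Between MacB3-2wk and MacA-2wk, both CD11c+ and both from tumour lobes, 1 mitosis gene passed both thresholds. Ccnb1 was lower in MacB3-2wk, with 0.5696, 0.624 and 0.876 FPKM, against 5.88, 2.91 and 3.55 FPKM in MacA-2wk (-1.56 ± 0.37, adjusted p = 0.00425). Anln, singled out after its values were seen, had a smaller adjusted p but a change just under 2-fold (-0.97 ± 0.22, adjusted p = 0.00309), and all its MacB3-2wk libraries lay below all MacA-2wk libraries. Ccnb1 was the 1 of 40 that passed, where 7.28% of all tested genes were lower and 7.2% higher. In limma 9 of the 40 had an unadjusted p under 0.05 downward and 1 upward, against 17.6% and 14.8% of all tested genes. The count became 2 without the first or the second MacA-2wk library, 4 without the third, and 3 without the first or the second MacB3-2wk library, and it was 7 after scaling to the protein-coding sum, which moved the median of all tested genes from -0.06 to -0.32. Ccnb1 was scarce in MacB2-2wk as well, at 0.489, 0.142 and 0.298 FPKM, whereas the related cyclin Ccnb2 had 12.8, 7.48 and 8.14 FPKM in MacB3-2wk, against 16.2, 15.4 and 15.97 FPKM in MacA-2wk. All MacA and MacB libraries were read in different lanes, so lane and cell type cannot be told apart here.

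The response to the tumour at week 2 was compared between MacB2 and MacA as a difference of differences. Ube2c was the 1 of the 40 genes that passed, against 0.221% of all tested genes in either direction: it rose more in MacB2 than in MacA. Its levels were 25.2, 18.7 and 31.6 FPKM in MacB2-2wk and 1.799, 2.13 and 0.4797 FPKM in MacB2-N, and 53.7, 33.1 and 50.1 FPKM in MacA-2wk and 42.2, 31.3 and 27.05 FPKM in MacA-N. The interaction was 3.02 ± 0.44 (SE) on the log2 scale (adjusted p = 0.00864), and its adjusted p was 0.0816 when only these 4 groups were fitted. For 31 of the 40 genes the interaction was above 0, with a median of 0.67 over the 40 and 0 over all tested genes. In limma 11 had an unadjusted p under 0.05 upward and 1 downward, against 4.59% and 5.27% of all tested genes.

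**Figure D4:**
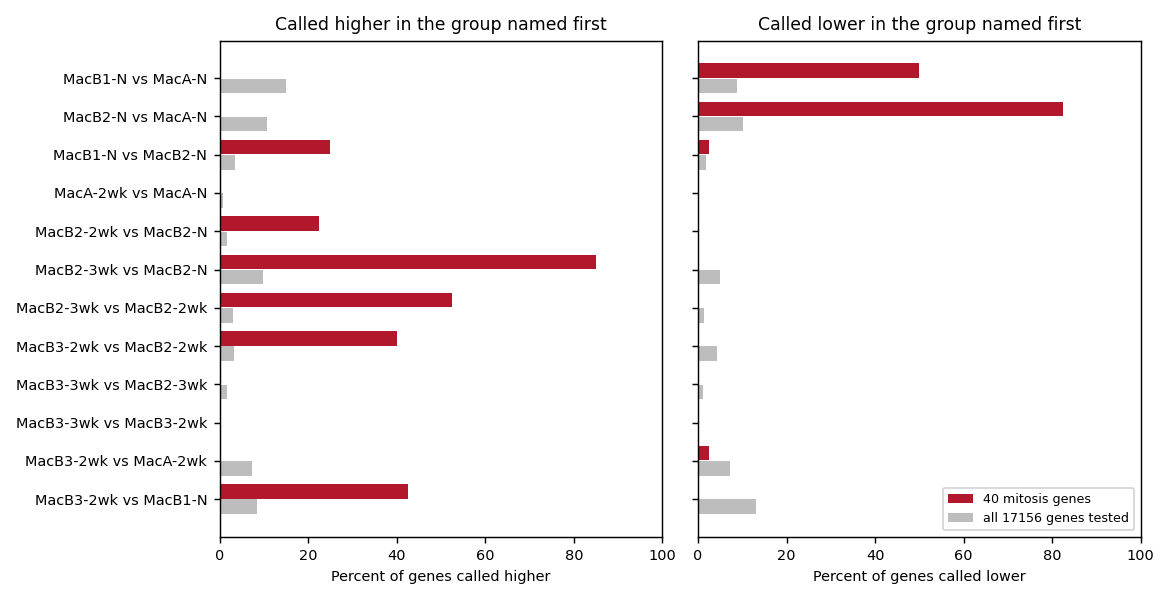
Percent of the 40 mitosis genes (red) and of all 17156 tested genes (grey) that passed the test, higher on the left and lower on the right, in each of the 12 comparisons. The red bars reach 85% higher in MacB2-3wk against MacB2-N and 82.5% lower in MacB2-N against MacA-N.

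Ordered by role, the kinases, cyclins and phosphatase that time mitosis did not all follow 1 course. Ccna2, Ccnb2 and Plk1 were among those that rose in MacB2 at week 2 and again between week 2 and week 3. Bub1, a spindle checkpoint kinase, had 4.34, 9.45 and 3.45 FPKM in MacB2-3wk and 0.159, 0.1003 and 0 FPKM in MacB2-N, and its highest value of all, in the first MacA-2wk library, stood far above the others of that group at 21.7, 5.89 and 5.16 FPKM. Bub1b had its highest group means in the MacA groups, with 39.1, 21.9 and 31.7 FPKM in MacA-2wk and 34.5, 53.03 and 33.9 FPKM in MacA-N, and 9.55, 9.08 and 7.68 FPKM in MacB2-3wk. Melk, a kinase of dividing and stem-like cells, Cdc25c, the phosphatase that activates Cdk1, and Ttk (Mps1), the kinase that starts the spindle checkpoint, were scarce in every group and highest on average in MacA-2wk, where Melk had 4.59, 3.53 and 2.99 FPKM, Cdc25c 0.708, 2.31 and 2.29 FPKM and Ttk 1.85, 1.11 and 0.116 FPKM. Aurka, the Aurora A kinase of the spindle poles, lay between 1.25 and 7.63 FPKM in all 24 libraries.

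The chromosomal passenger complex joins Aurkb (Aurora B kinase), its scaffold Incenp, survivin (Birc5) and borealin (Cdca8). All 4 were lower in MacB2-N than in MacA-N and all 4 were higher in MacB2-3wk than in MacB2-N. Aurkb had 17.6, 16.2 and 18.2 FPKM in MacB2-3wk and 3.999, 1.93 and 2.23 FPKM in MacB2-N. Incenp had 12.3, 8.499 and 8.93 FPKM in MacB2-3wk and 4.14, 2.13 and 3.95 FPKM in MacB2-N, a narrower difference. Cdca8 had 9.42, 8.09 and 5.39 FPKM in MacB2-3wk and 0, 0.582 and 0.701 FPKM in MacB2-N. For all 4 genes the MacB2-3wk libraries lay above the MacB2-N libraries.

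At the kinetochore, Ndc80, Nuf2 and Spc25 form the complex that grips microtubules. Spc25 was the most abundant of them per length, with 32.3, 11.03 and 22.02 FPKM in MacB3-3wk, and all 3 were higher in MacB2-3wk than in MacB2-N. Ndc80 stayed at 1.83, 2.39 and 2.71 FPKM in MacB2-3wk, against 0.599, 0.0809 and 0.547 FPKM in MacB2-N. Cenpe, the kinetochore motor, and Cenpf, a large kinetochore protein, were also higher in MacB2-3wk; Cenpe had 2.28, 1.62 and 2.203 FPKM there and 0.247, 0 and 0.0797 FPKM in MacB2-N.

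The spindle genes included Kif11 (Eg5), which pushes the poles apart, Kif4, which organises chromosome arms and the midzone, and Prc1, which crosslinks midzone microtubules. Kif11 had 2.85, 3.26 and 1.93 FPKM in MacB2-3wk and 0, 0.0349 and 0.394 FPKM in MacB2-N. Kif2c had 5.09, 1.51 and 6.31 FPKM in MacB2-3wk and was listed at 0 in the 3 MacB2-N libraries. Prc1 had 20.6, 11.4 and 6.92 FPKM in MacB2-3wk and 0.523, 2.27 and 0.631 FPKM in MacB2-N. These genes did not overlap between those groups. Hmmr, a hyaluronan receptor that also acts at spindle poles, and Ckap2, a microtubule-stabilising protein, were also higher in MacB2-3wk, with 6.79, 5.86 and 3.96 FPKM for Ckap2 in MacB2-3wk and 0, 0 and 0.861 FPKM in MacB2-N. Nusap1 was the most abundant member in MacB3-3wk, at 121, 141 and 103 FPKM.

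Among the cytokinesis genes, Anln, Ect2 and Kif20a followed the majority, and Racgap1 and Kif23 did not. Ect2, the exchange factor that activates RhoA at the cleavage plane, had 11.1, 8.597 and 7.21 FPKM in MacB2-3wk and 0.357, 0.0798 and 0 FPKM in MacB2-N. Kif20a, a kinesin that brings the passenger complex to the midzone, had 6.44, 4.75 and 2.7995 FPKM in MacB2-3wk and 0.355, 0.485 and 0.603 FPKM in MacB2-N. Both genes separated the groups. Racgap1 and Kif23 together form centralspindlin, which bundles the midzone, and both were present in every MacB2-N library, where only 16 members averaged at least 1 FPKM. Racgap1 had 58.1, 36.8 and 31.6 FPKM in MacB2-N, against 15.4, 30.5 and 23.4 FPKM in MacA-N, and 19.5, 9.04 and 18.1 FPKM in MacB1-N. Every MacB2-N library exceeded every MacA-N and MacB1-N library. It was lower in MacB1-N than in MacB2-N by a log2 fold change of -1.41 ± 0.34 (adjusted p = 0.0145), a value singled out after it was seen. Racgap1 was also higher in MacB2-3wk than in MacB2-2wk. Kif23 had 5.67, 5.32 and 3.53 FPKM in MacB2-3wk and 4.72, 4.499 and 4.92 FPKM in MacB2-N, overlapping.

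Cenpa, the histone H3 variant that marks centromeres, also went its own way. It had 41.6, 34.5 and 25.3 FPKM in MacB2-N, against 24.5, 23.3 and 12.7 FPKM in MacA-N, and 51.8, 64.3 and 37.99 FPKM in MacB2-3wk. All MacB2-N values of Cenpa lay above all MacA-N values, without passing the test. Aurka, Cenpa, Kif23 and Ttk passed in 0 of the 12 comparisons in limma. At the other end, Birc5, Ccnb2, Plk1, Tpx2 and Ube2c passed in 8 of the 12; the comparisons share groups and are not independent.

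The likeness of each gene to the rest was described by Pearson's r between its log2(FPKM + 1) and the mean of the other 39 genes over the 24 libraries, which share groups, lanes and depth. The median r was 0.888, with 29 genes at 0.8 or more and Kif20a highest at 0.963. The 4 genes under 0.5 were Aurka at 0.428, Racgap1 at 0.405, Kif23 at 0.319 and Cenpa at 0.259. Without the 3 MacB2-N libraries r became 0.763 for Racgap1 and 0.605 for Aurka. These values describe the libraries and carry no p.

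The rest of the division programme was followed with lists of other genes. The shares of all tested genes to set beside their counts are 9.67% higher and 5.04% lower in MacB2-3wk against MacB2-N, 10.7% higher and 10.2% lower in MacB2-N against MacA-N, 15% higher and 8.71% lower in MacB1-N against MacA-N, 1.66% higher in MacB2-2wk against MacB2-N and 3.15% higher in MacB3-2wk against MacB2-2wk. Of 49 tested genes of mitosis outside the 40, such as Cks1b (a Cdk subunit), Ncapd2 (a condensin) and Kif18b (a kinesin), 30 were higher in MacB2-3wk than in MacB2-N and 0 lower, and 29 were lower and 1 higher in MacB2-N than in MacA-N. Cks1b averaged 33.3 ± 6.32 FPKM in MacB2-3wk and 2.82 ± 1.13 FPKM in MacB2-N (3.19 ± 0.30, adjusted p = 6.67e-07). In MacB2-2wk 1 was higher and 1 lower than in MacB2-N, and in MacB3-2wk 8 were higher than in MacB2-2wk. At an unadjusted p under 0.05 in limma, 21 were higher and 3 lower in MacB2-2wk than in MacB2-N. The shares of all tested genes there were 9.79% and 5.06%. In MacA-2wk 0 passed against MacA-N in limma, and 7 had an unadjusted p under 0.05 upward, against 7.64% of all tested genes. Of 40 DNA replication genes, 26 were higher in MacB2-3wk than in MacB2-N, 3 in MacB2-2wk than in MacB2-N and 17 in MacB3-2wk than in MacB2-2wk. At an unadjusted p under 0.05 in limma, 18 were higher and 1 lower in MacB2-2wk than in MacB2-N. Mcm6, a subunit of the replicative helicase, averaged 23.8 ± 8.896 FPKM in MacB2-3wk and 2.36 ± 0.813 FPKM in MacB2-N (2.86 ± 0.26, adjusted p = 4.38e-07), and Mcm3, another subunit, averaged 32.4 ± 4.32 FPKM in MacB3-2wk and 10.1 ± 0.871 FPKM in MacB2-2wk (1.58 ± 0.22, adjusted p = 0.000105). In naive cells 26 replication genes were lower in MacB2-N than in MacA-N, and 12 were lower and 1 higher in MacB1-N than in MacA-N. The 1 that was higher was Tk1, thymidine kinase, at 121 ± 19.9 FPKM in MacB1-N and 27.1 ± 8.22 FPKM in MacA-N (2.14 ± 0.23, adjusted p = 6.78e-07). Of the 16 subunits of the anaphase-promoting complex, 1 was higher in MacB2-3wk than in MacB2-N, Cdc16, and 1 was higher (Cdc26) and 1 lower (Anapc2) in MacB2-N than in MacA-N. Anapc2 was also lower in MacB3-2wk than in MacA-2wk. These counts of 1 in 16 do not exceed the share of all tested genes in their comparisons.

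**Figure D5:**
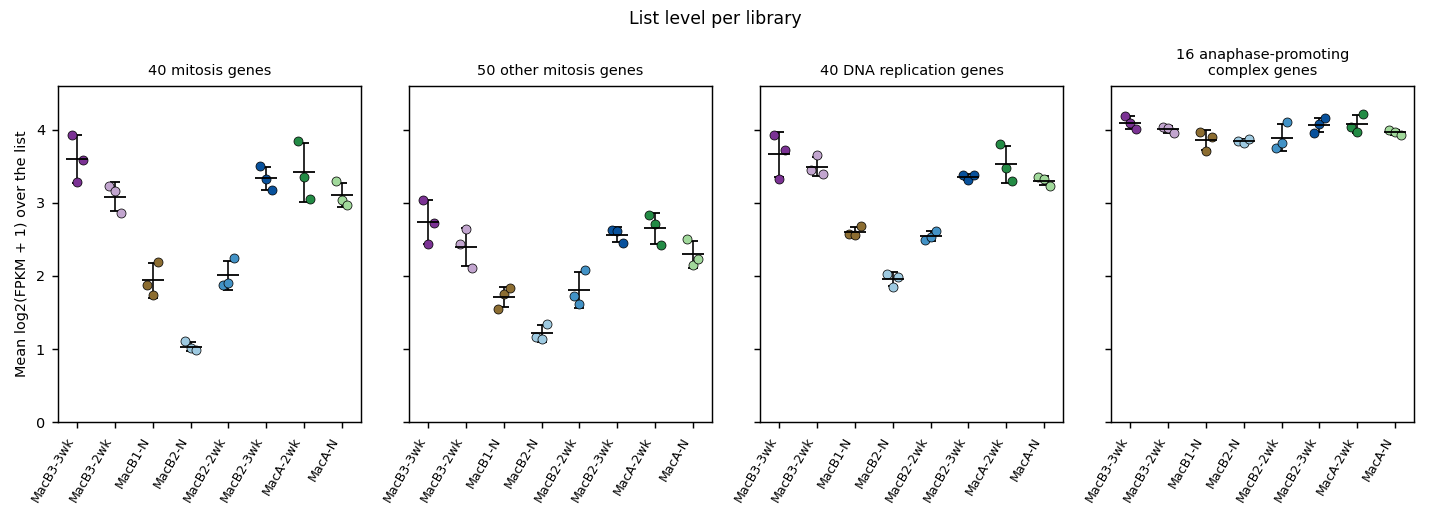
Mean log2(FPKM + 1) over the 40 mitosis genes, 50 other mitosis genes, 40 DNA replication genes and 16 anaphase-promoting complex genes in each library (points), with group means and SD (bars). The first 3 lists dip in MacB2-N and the fourth is near 4 in every group.

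Upstream regulators moved in part. Of 17 regulators of the G1 to S step, 9 were higher and 1 lower in MacB2-3wk than in MacB2-N, against 9.67% and 5.04% of all tested genes. E2f8, an atypical repressor of the E2F family, averaged 14.5 ± 1.32 FPKM in MacB2-3wk and 2.87 ± 0.237 FPKM in MacB2-N (2.00 ± 0.18, adjusted p = 4.38e-07). Myc, a growth-promoting transcription factor, averaged 422 ± 109.8 FPKM in MacB2-3wk and 36.7 ± 5.96 FPKM in MacB2-N (3.46 ± 0.39, adjusted p = 4.81e-06). The D cyclins split in naive cells: Ccnd2 was lower in MacB2-N than in MacA-N (-4.07 ± 0.25, adjusted p = 3.55e-10) and Ccnd3 higher (1.94 ± 0.21, adjusted p = 6.53e-07). Mybl2 (B-Myb), which activates late cell cycle genes, averaged 4.504 ± 2.27 FPKM in MacB2-3wk and 0.70001 ± 1.15 FPKM in MacB2-N and rose by 1.79 ± 0.51 (adjusted p = 0.0171); it did not pass in the other 11 comparisons. E2f1, an activator of S phase genes, was lower in MacB2-N than in MacA-N (-1.74 ± 0.23, adjusted p = 1.07e-05) and higher in MacB3-2wk than in MacB2-2wk (1.25 ± 0.23, adjusted p = 0.00172).

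Of 21 cell cycle inhibitors, 0 passed in MacB2-3wk against MacB2-N in limma, where 3 had an unadjusted p under 0.05 upward and 7 downward. The shares of all tested genes were 18.5% upward and 14.1% downward. Cdkn1b (p27), an inhibitor of cyclin-dependent kinases, averaged 44.8 ± 2.32 FPKM in MacB3-2wk and 98.4 ± 1.26 FPKM in MacB2-2wk (-1.12 ± 0.20, adjusted p = 0.000991). It was the 1 of the 21 that was lower there, a share near the 4.21% of all tested genes. It was also lower in MacB3-2wk than in MacB1-N (-1.63 ± 0.20, adjusted p = 5.61e-06) and higher in MacB1-N than in MacA-N (1.34 ± 0.20, adjusted p = 2.94e-05). Rb1, the retinoblastoma protein that holds E2F factors inactive, averaged 91.97 ± 14.2 FPKM in MacB1-N and 23.8 ± 8.26 FPKM in MacA-N (1.95 ± 0.47, adjusted p = 0.00325). Cdkn1a (p21) was abundant everywhere, from 203 FPKM on average in MacA-N to 351 FPKM in MacB2-3wk, and Cdkn2c (p18) was scarce, from 3.99 FPKM in MacA-N to 10.9 FPKM in MacB3-3wk. Neither Cdkn1a nor Cdkn2c passed in any of the 12 comparisons.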

How the data were processed

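RNA of sorted lung cells was sequenced in 24 libraries, 3 per group. Per the submitters' processing notes the tools named are FastQC, TopHat2 version 2 and Cufflinks version 2.0.2, with the build mm10; the authors deposited 1 table of FPKM values per gene and library, whose header names no unit. Read totals are not given in the sources used here, so the depth behind a value, and its counting error, are unknown.

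The mitosis genes and all gene lists were chosen with earlier results of these data known. Genes were matched by symbol. FPKM values were used as deposited, as log2(FPKM + 1), for the 17156 genes whose highest group mean reached 1 FPKM. limma 3.58.1 (R 4.3.3) fitted 1 mean per group over all 24 libraries, with an intensity trend in the empirical Bayes step, for 12 pairwise contrasts and 2 interactions, and p-values were adjusted by Benjamini-Hochberg over all tested genes. The fit was tested on simulated data. Pearson correlations and counts were computed in Python 3.11.15 with pandas 2.3.3. In each comparison the genes selected for naming with a fold change were up to 6 that passed with the smallest adjusted p. Mki67, Top2a, Cdk1, Ccnb1, Plk1 and Birc5 were added. Of other lists up to 4 that passed were selected, plus fixed regulators. Not every selected fold change is printed, and which ones are was not fixed in advance. Values said to be singled out after they were seen lie outside this selection. Replicate numbers were not used as pairs, since in no pair of groups did all same-numbered libraries deviate together (r over 0.1). The MacB3 group from week 2 follows its sample titles; the series text names it differently. Alternatives were the pseudocount, the filter, 2 scalings, fitting only the groups compared, the empirical Bayes trend, a replicate block, a lane block for MacB and leaving out each library. The p-values measure the spread between pools of mice from 3 experiments.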

Additional observations from a re-analysis of the deposited data

Results flagged for a closer look

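Ube2c was the mitosis gene whose response to the tumour at week 2 differed between cell types by the test of the difference itself. Its rise in MacB2 (MacB2-2wk against MacB2-N) exceeded its change in MacA (MacA-2wk against MacA-N) by 3.02 ± 0.44 (SE) on the log2(FPKM + 1) scale, with an adjusted p of 0.00864 in limma over 17156 genes. All 3 MacB2-2wk libraries lay above all 3 MacB2-N libraries, with 25.2, 18.7 and 31.6 FPKM in MacB2-2wk and 1.799, 2.13 and 0.4797 FPKM in MacB2-N. The MacA groups overlapped, with 53.7, 33.1 and 50.1 FPKM in MacA-2wk and 42.2, 31.3 and 27.05 FPKM in MacA-N. Over its alternatives the adjusted p ranged from 0.003 to 0.0816, the highest value coming from the fit of only these 4 groups. MacA and MacB libraries were read in different lanes, which cannot be told apart from cell type in the levels.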

How the results depend on the processing

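Only fold changes selected for naming that had passed the test were put through the alternatives, so a reversal was unlikely in advance. Some of them are not printed above. Of these 71 fold changes with 1115 alternatives, 1013 stayed on their side of the threshold, 102 lost it and 0 reversed. The call was kept throughout for 37. Named fold changes that did not pass were not followed in this way. Counts of mitosis genes that passed moved by more than 1.5 times as follows. With a pseudocount of 5 they were 11 in MacB1-N against MacA-N, 20 in MacB2-N against MacA-N, 5 in MacB1-N against MacB2-N, 4 in MacB2-2wk against MacB2-N, 21 in MacB2-3wk against MacB2-N, 10 in MacB2-3wk against MacB2-2wk, 0 in MacB3-2wk against MacA-2wk and 9 in MacB3-2wk against MacB1-N. With a pseudocount of 0.1 they were 21 in MacB1-N against MacB2-N, 19 in MacB2-2wk against MacB2-N, 2 in MacB3-2wk against MacA-2wk and 4 for the MacB2 minus MacA response. Quantile normalization gave 7 in MacB1-N against MacB2-N and 28 in MacB3-2wk against MacB1-N, and scaling to the protein-coding sum gave 7 in MacB3-2wk against MacA-2wk. Fitting only the groups compared gave 2 in MacB1-N against MacB2-N, 1 in MacB2-2wk against MacB2-N, 6 in MacB2-3wk against MacB2-2wk, 5 in MacB3-2wk against MacB2-2wk and 0 for the MacB2 minus MacA response; that fit has fewer samples. Otherwise the cause was not tested. With the replicate number as a block the count was 2 in MacB3-2wk against MacA-2wk, and the block moved no other count by over 1.5 times; the numbers were not shown to pair the libraries. The lane block for MacB groups, added after seeing the data, moved none by that much. With 1 library left out the counts ranged from 15 to 22 in MacB1-N against MacA-N, 31 to 34 in MacB2-N against MacA-N, 6 to 11 in MacB1-N against MacB2-N, 6 to 9 in MacB2-2wk against MacB2-N, 32 to 34 in MacB2-3wk against MacB2-N, 12 to 16 in MacB2-3wk against MacB2-2wk, 6 to 15 in MacB3-2wk against MacB2-2wk, 1 to 4 in MacB3-2wk against MacA-2wk and 12 to 20 in MacB3-2wk against MacB1-N; they stayed at 1 for the MacB2 minus MacA response and at 0 for the comparisons with no gene called. Levels under about 1 FPKM, as for most members in MacB2-N, are limited by an unknown depth.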

Other observations

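Within several groups many mitosis genes ordered the replicate libraries alike, most clearly in MacB3-3wk and MacA-2wk. In MacB3-3wk the first library held the highest value for 30 of the 40 genes and the second held the lowest for 30. In MacA-2wk the first held the highest for 32 and the third the lowest for 27, and in MacB2-3wk the first held the highest for 26 and the third the lowest for 22. Skews of like size were present in MacB3-2wk, where the third held the lowest for 24, and in MacA-N, where the first held the highest for 22. In MacB1-N the third held the highest for 21. The matching shares over all tested genes are not given here. The 3 MacB2-N libraries held the highest value for 19, 10 and 11 genes. That split was much like the 10, 9 and 21 of MacB1-N and the 14, 6 and 20 of MacB2-2wk.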
